A study of Xenopus tropicalis with 84 samples.

Results

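*rest* and 5 genes for its corepressors, *rcor1*, *rcor2*, *rcor3*, *sin3a* and *sin3b*, were followed in a polyA+ RNA-seq time course of *Xenopus tropicalis* embryos. The genes were taken by symbol from the deposited expression table. All 6 were found among its 34192 genes, and all 6 were among the 15011 genes that passed the filter on low expression (more than 0.4 TPM at 6 time points in a row, in one condition or the other). Embryos depleted of Nup107, a scaffold protein of the nuclear pore, were compared with their siblings through the maternal-to-zygotic transition, when the RNA stored in the egg is cleared and the genome of the embryo is switched on. The *nup107* MO embryos were injected at the one-cell stage with 10 ng of a start site morpholino oligonucleotide. The uninjected control (UIC) embryos received nothing, so that depletion of Nup107 and injection itself cannot be told apart. Embryos of both groups were used whole and pooled at 10 per library. Libraries were made every 0.5 h from 2 to 12 hours post fertilization (hpf), giving 21 in each condition. Each time point was sampled by 1 library in each condition and has no replicate of its own.

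REST is a zinc finger repressor that binds the RE1 element, found in mammals beside many neuronal genes, and keeps those genes silent outside neurons. In mammals its C-terminal end recruits CoREST proteins (the products of the *rcor* genes), which hold the histone demethylase LSD1 (*kdm1a*) and the deacetylases HDAC1 and HDAC2. Its N-terminal end recruits SIN3 proteins, which are scaffolds for a separate deacetylase complex. In frogs REST is known to act in the patterning of the ectoderm, where neural and epidermal fates separate. Whole-embryo values carry no information on place, and in them fewer cells that express a gene and less RNA per cell cannot be told apart.

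Expression is given as TPM, transcript abundance relative to the library total, a scale set per transcript length, on which levels of different genes can be compared. The depth of the libraries is unknown. The study states that maternal RNA levels read by polyA+ sequencing also vary with polyadenylation in the early embryo. Changes in the poly(A) tail and in the amount of RNA cannot be told apart here. The ribozero libraries, which the study used to separate them, were not analysed. From those libraries the study attributed the increases of its cluster with *rest* to the amount of transcript, not to the poly(A) tail. ERCC spike-ins, added control RNAs, took 4.60% to 5.98% of the TPM in *nup107* MO libraries and 4.46% to 6.35% in UIC libraries. Between 13167 and 15194 genes were over 0.4 TPM in *nup107* MO libraries, against 13125 to 15520 in UIC libraries. The mRNA of the targeted gene, *nup107*, was higher in *nup107* MO embryos late in the course (mean log2 difference of 1.22 at 9 to 12 hpf). Since start site morpholinos block translation, the mRNA level does not measure the depletion. The 9 hpf pair stood out by the time of the highest log2 difference of *nup107* MO over UIC. Of the 784 genes called increased in *nup107* MO, 388 (49.5%) had this highest value at 9 hpf, against 8.97% of all tested genes. Differences with *nup107* MO below UIC do not enter these shares. The 784 genes were selected as increased and all tested genes were not, so the 2 shares are not like for like. For *rest*, *sin3a* and the partner and target genes called by the GP test, differences are also given without that pair. Leaving it out does not remove dips in other UIC libraries. At 5.5, 6 and 6.5 hpf UIC libraries held 30.2, 20.9 and 38.7 TPM of *rest* and 57.8, 42.9 and 60.6 TPM of *hmg20b*. *rcor1* in the same libraries was at 141, 163 and 157 TPM.

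*rest* mRNA was higher in *nup107* MO embryos than in UIC embryos through most of the course, by 1.66-fold on average, while the genes for its CoREST corepressors and *sin3b* differed by under 1.1-fold on average. At 2 hpf *rest* stood at 59.9 TPM in the *nup107* MO library and 60.5 TPM in the UIC library. At 2.5, 3, 3.5 and 4 hpf the *nup107* MO libraries held 70.0, 63.8, 65.5 and 68.6 TPM, against 46.6, 30.3, 28.1 and 25.7 TPM in UIC libraries. In polyA+ RNA the 1 pair of libraries at 2 hpf was thus level, and the conditions had separated by 3 hpf. Up to 4 hpf a fall was seen in UIC libraries alone, and UIC was back at 41.0 TPM at 4.5 hpf. The level start has no replicate. Its UIC library held the highest UIC value of *rest* and of each corepressor gene but *rcor3*. From 4.5 to 6.5 hpf *nup107* MO libraries stayed between 59.3 and 72.2 TPM, and UIC libraries lay between 20.9 and 41.0 TPM. At 7 hpf the conditions met again, at 36.0 TPM in *nup107* MO and 37.4 TPM in UIC. The 5 time points from 9.5 to 11.5 hpf gave 20.8, 24.6, 25.8, 23.4 and 13.9 TPM in *nup107* MO libraries, against 16.3, 12.1, 12.8, 13.8 and 12.7 TPM in UIC libraries. At 12 hpf the order was turned, with 22.4 TPM in *nup107* MO and 27.4 TPM in UIC.

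**Figure D1:**
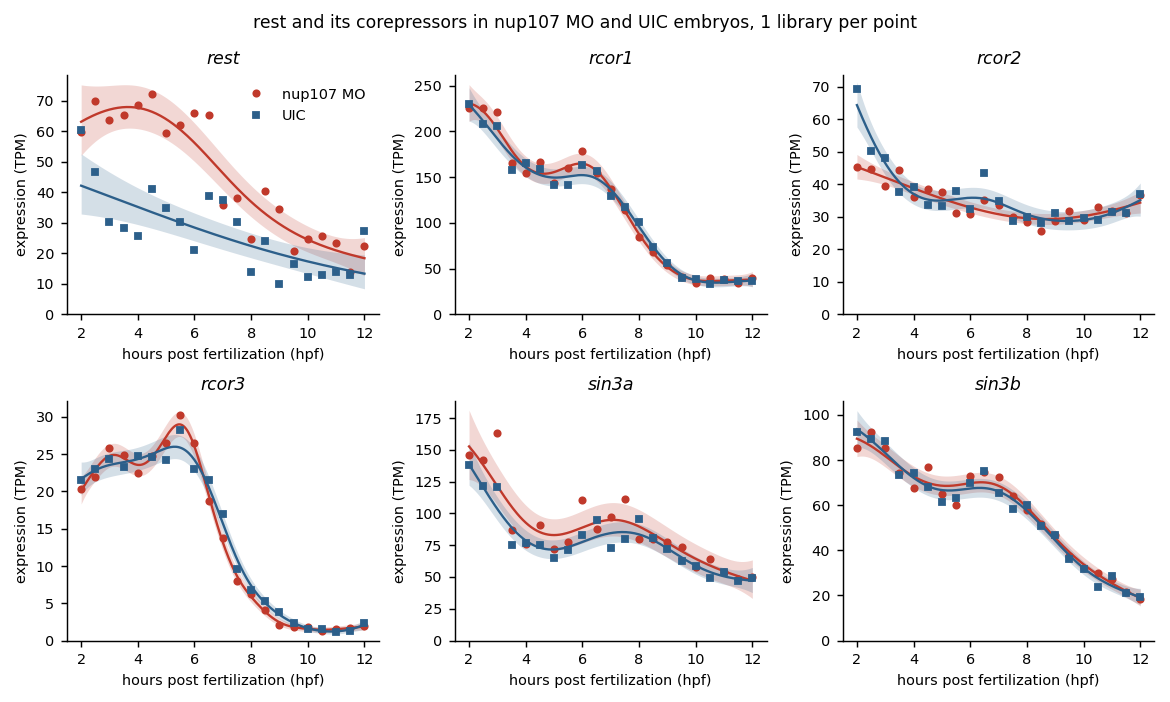
Expression in TPM (y axis, from 0) against hours post fertilization (x axis) for *rest* and its 5 corepressors in *nup107* MO (red circles) and UIC (blue squares) embryos. Points are single libraries, lines the medians of the fitted Gaussian processes and bands their 95% intervals. The *rest* points of *nup107* MO lie above those of UIC at 18 of 21 time points, whereas the points of *rcor1* and *sin3b* lie on each other.

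Over the 21 libraries of each condition, *rest* had a lowest, median and highest value of 13.9, 40.6 and 72.2 TPM in *nup107* MO embryos, and of 10.0, 27.4 and 60.5 TPM in UIC embryos. The mean was 65.6 ± 4.97 TPM in *nup107* MO and 38.1 ± 12.3 TPM in UIC at 2 to 5 hpf (SD, 7 time points, which includes change over time). From 5.5 to 8.5 hpf it was 47.5 ± 16.6 TPM in *nup107* MO and 27.9 ± 8.95 TPM in UIC. From 9 hpf on the *nup107* MO mean was 23.6 ± 6.14 TPM and the UIC mean 15.02 ± 5.76 TPM. The ranges of the libraries overlapped in each of the 3 windows. Across the course *rest* was 2.78-fold higher in the first window than in the last in *nup107* MO embryos, and 2.54-fold higher in UIC embryos. The libraries of both conditions first went under 50% of their mean of 2 to 4 hpf at 8 hpf. Those of *nup107* MO embryos stayed under it from 9.5 hpf on, and the UIC library of 12 hpf was over it again. The mean of 2 to 4 hpf was 65.6 TPM in *nup107* MO. In UIC it was 38.2 TPM and already held the fall from 60.5 TPM at 2 hpf to 25.7 TPM at 4 hpf. The shared time of 8 hpf and the folds between windows therefore do not measure loss from the level at 2 hpf.

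The whole courses were compared with the likelihood ratio test of the study's methods. Gaussian processes (GPs), smooth curves with a fitted length scale and noise, were fitted to each condition alone and to both together, and the likelihood ratio score (LR) is the gain in log-likelihood of separate curves. A gene with an LR over 0 was called. Of the 6 genes, 1 was called increased, with 5.22% of all tested genes called increased, and 0 were called decreased, with 2% of all tested genes called decreased. This was *rest*, with an LR of 12.1, in place 80 of the 784 increased genes. Without the 9 hpf pair its LR was 11.1. The study chose *rest* for follow-up from these libraries, so its call is not independent evidence of its direction. Apart from these libraries, the study reported raised *rest* expression in *nup107* MO embryos by in situ hybridization.

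The size of each difference was estimated with limma on log2(TPM + 1), pairing libraries by time point, with p-values adjusted by the Benjamini-Hochberg method over the 15011 genes. *rest* was above UIC at 18 of 21 time points in *nup107* MO embryos, by an average log2 difference of 0.73 ± 0.11 (SE, adjusted p = 0.000155, limma), and of 0.69 without the 9 hpf pair (adjusted p = 0.000189). Of the 6 genes, 2 were called higher (10.3% of all tested genes) and 0 lower (4.8% of all tested genes) at an adjusted p under 0.05, *sin3a* being the other. The shares over all genes moved with the scaling, to 18.1% higher and 0.346% lower with ERCC scaling and to 7.91% and 7% with median ratios. At an unadjusted p under 0.05 limma had the same counts of 2 and 0, with 17.8% of all tested genes higher and 10.5% lower. In a fit without the pairing block the difference of *rest* kept its size and lost the call (adjusted p = 0.204), since the change over time then counts as noise. The test makes no allowance for the dependence between neighbouring time points.

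By window, the log2 difference of *rest* was 0.82 ± 0.20 at 2 to 5 hpf (SE, adjusted p = 0.0172, limma), 0.74 ± 0.20 at 5.5 to 8.5 hpf (adjusted p = 0.0926) and 0.64 ± 0.20 at 9 to 12 hpf (adjusted p = 0.0414). It was positive at 6 of 7 time points in each window. Of the 6 genes, 1 was called higher in the early window (6.3% of all tested genes) and 1 in the late window (5.3%), *rest* in both. Leaving out 1 pair moved these shares to as little as 2.5% early (without 2.5 hpf) and 2.73% late (without 10.5 hpf). In the middle window 0 of 6 were called higher by limma (0.167% of all tested genes, and 1.89% without the 9 hpf pair), and 1 of 6, *rest*, had an unadjusted p under 0.05 (p = 0.00117, limma), with 15.2% of all tested genes under it in either direction. The early call was lost without the pair of 3 hpf (adjusted p = 0.0555) or 3.5 hpf (adjusted p = 0.0543). The late difference fell to 0.47 and was not called without the 9 hpf pair (adjusted p = 0.142), and the call was also lost in each of 6 other fits that left out 1 pair. The difference did not change detectably between windows: late minus early was -0.18 ± 0.28 (SE, adjusted p = 0.817, limma). For this contrast limma called 0 of 6 genes (3.09% of all tested genes in either direction), and 0 of 6 had an unadjusted p under 0.05 (17.2% of all tested genes).

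**Figure D2:**
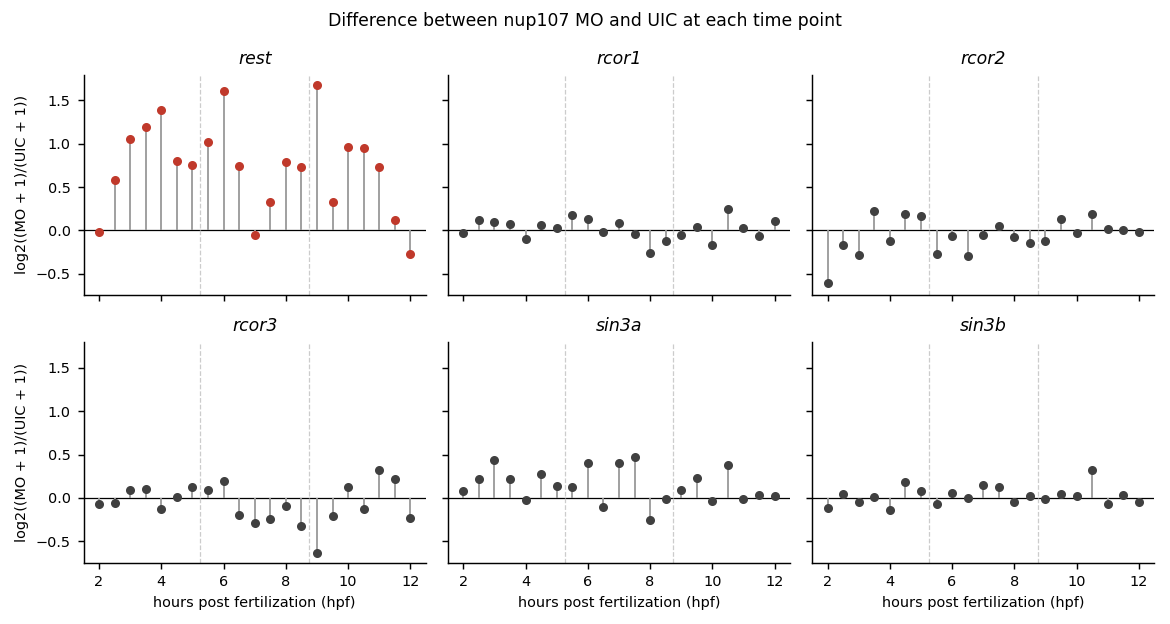
Difference between *nup107* MO and UIC, log2((MO + 1)/(UIC + 1)) in TPM (y axis), at each of 21 time points (x axis, hpf) for *rest* (red) and 5 corepressors (grey), with dashed lines between the 3 windows. The *rest* differences reach 1.68 at 9 hpf and are below 0 at 2, 7 and 12 hpf, and those of *rcor1* stay between -0.26 and 0.25.

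The *rest* values of UIC embryos moved up and down between neighbouring libraries more than those of the corepressors. The median step between neighbouring time points was 0.18 in *nup107* MO and 0.39 in UIC on the log2 scale for *rest*, and 0.12 to 0.23 for the 5 corepressors in either condition. Over the 9027 tested genes that averaged 10 TPM or more the median step was 0.15 in both conditions. Over the 534 genes at that level that were called increased it was 0.15 in *nup107* MO and 0.22 in UIC. For genes described below the UIC step was above that of *rest*, at 0.51 for *aim1* and *cep83*, 0.48 for *mga* and 0.50 for *phf3*. In *nup107* MO the steps of these genes were 0.27 to 0.50. In UIC embryos *rest* was at 13.8, 24.1 and 10.0 TPM at 8, 8.5 and 9 hpf, and *rcor1* in the same libraries was at 101, 73.8 and 55.6 TPM. The 9 hpf library held the lowest UIC value of *rest*. The part of this library-to-library movement in the difference of *rest* was not tested.

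Among the 5 genes whose expression over the 42 libraries was most like that of *rest* were *aim1* (r = 0.978), *mga* (0.977), *cep83* (0.976) and *phf3* (0.968; Pearson r of log2(TPM + 1), 42 libraries, a description across samples that share time and library). All 5 were called increased, with LR from 10.8 to 13.9. The correlation spans both conditions, so it favours genes that share the difference of *rest*, and these calls are not independent evidence. *mga*, a MAX-binding T-box factor, had 22.1 TPM in *nup107* MO and 10.8 TPM in UIC as means of 2 to 5 hpf. *phf3*, a PHD finger protein, had 41.8 TPM in *nup107* MO and 15.1 TPM in UIC. Like *rest*, the genes *aim1* and *cep83* had their lowest UIC value at 9 hpf, where *cep83* had 53.0 TPM in *nup107* MO and 9.76 TPM in UIC.

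*rcor1*, which encodes the CoREST protein first found with REST in mammals, was the most abundant of the 6 genes early and did not differ detectably between the conditions. Its lowest, median and highest values were 34.0, 137 and 226 TPM in *nup107* MO embryos and 33.6, 129 and 230 TPM in UIC embryos. The ratio of *nup107* MO to UIC stayed within 1.2-fold at 21 of 21 time points. The LR was -15.9 and the mean log2 difference 0.02 ± 0.03 (SE, adjusted p = 0.761, limma), with a 95% interval from -0.04 to 0.07. In both conditions *rcor1* fell late, to 40.0 ± 6.52 TPM in *nup107* MO and 39.5 ± 7.31 TPM in UIC in the last window, which is 4.65-fold and 4.59-fold below the level of 2 to 5 hpf. It stayed under 50% of its mean of 2 to 4 hpf from 8 hpf in *nup107* MO and from 8.5 hpf in UIC. Most like it over the 42 libraries were *sdc1* and *ndc1* (both r = 0.996), neither of them called.

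*rcor2*, another CoREST gene, was the steadiest of the 6 over time. Its lowest, median and highest values were 25.5, 33.1 and 45.3 TPM in *nup107* MO embryos and 28.2, 33.3 and 69.3 TPM in UIC embryos. The conditions differed most in the first libraries, at 45.3 TPM in *nup107* MO and 69.3 TPM in UIC at 2 hpf. The LR was -1.46 and the mean log2 difference -0.06 ± 0.04 (SE, adjusted p = 0.392, limma), with a 95% interval from -0.14 to 0.02. The early difference was -0.08, and 0.0033 without the 2 hpf pair. *rcor2* was the corepressor nearest to a GP call, and it was called decreased when libraries were scaled by median ratios (LR 0.42) or when the mean of each gene was subtracted before the fit (LR 2.20). Its expression did not stay under 50% of the early level at any time, and was 31.7 ± 2.69 TPM in *nup107* MO and 31.1 ± 2.79 TPM in UIC at 9 to 12 hpf. *mprip* (r = 0.957) and *mat2a* (r = 0.936) were most like it, and neither was called.

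*rcor3* had the lowest expression of the CoREST genes and was lost almost entirely. It was highest at 5.5 hpf in both conditions, at 30.3 TPM in *nup107* MO and 28.2 TPM in UIC. At 7, 7.5 and 8 hpf it was at 13.8, 7.94 and 6.28 TPM in *nup107* MO libraries and at 17.02, 9.55 and 6.79 TPM in UIC libraries. The mean of 9 to 12 hpf was 1.74 ± 0.27 TPM in *nup107* MO and 1.99 ± 0.96 TPM in UIC, and the level of 2 to 5 hpf was 13.7-fold and 11.9-fold above these. It stayed under 50% of its early level from 7.5 hpf in both conditions. *nup107* MO libraries were below UIC libraries at each of the 7 time points from 6.5 to 9.5 hpf, but the test over the course made no call (LR -11.3, mean log2 difference -0.06 ± 0.05, adjusted p = 0.416, limma, 95% interval from -0.16 to 0.03). The run of 7 time points was picked out after its values were seen and was not tested. *rasef* (r = 0.995) and *fam63b* (r = 0.994) were most like it.

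The make-up of the CoREST family changed over time in much the same way in both conditions. *rcor1* made up 73.8 ± 3.46% of the summed TPM of the 3 genes at 2 to 5 hpf in *nup107* MO and 72.6 ± 1.14% in UIC (SD, 7 time points), and 54.2 ± 4.37% in *nup107* MO and 54.2 ± 4.06% in UIC at 9 to 12 hpf. The share of *rcor2* was 16.5 ± 1.72% in *nup107* MO and 17.6 ± 1.90% in UIC early, and 43.4 ± 4.41% in *nup107* MO and 43.2 ± 4.60% in UIC late. The share of *rcor3* was 9.76% in *nup107* MO and 9.78% in UIC early, and 2.37% in *nup107* MO and 2.66% in UIC late. The summed level was 251 TPM in *nup107* MO and 249 TPM in UIC early, and 73.5 TPM in *nup107* MO and 72.6 TPM in UIC late. Shares within a library do not depend on its scaling, and were added after the data were seen.

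**Figure D3:**
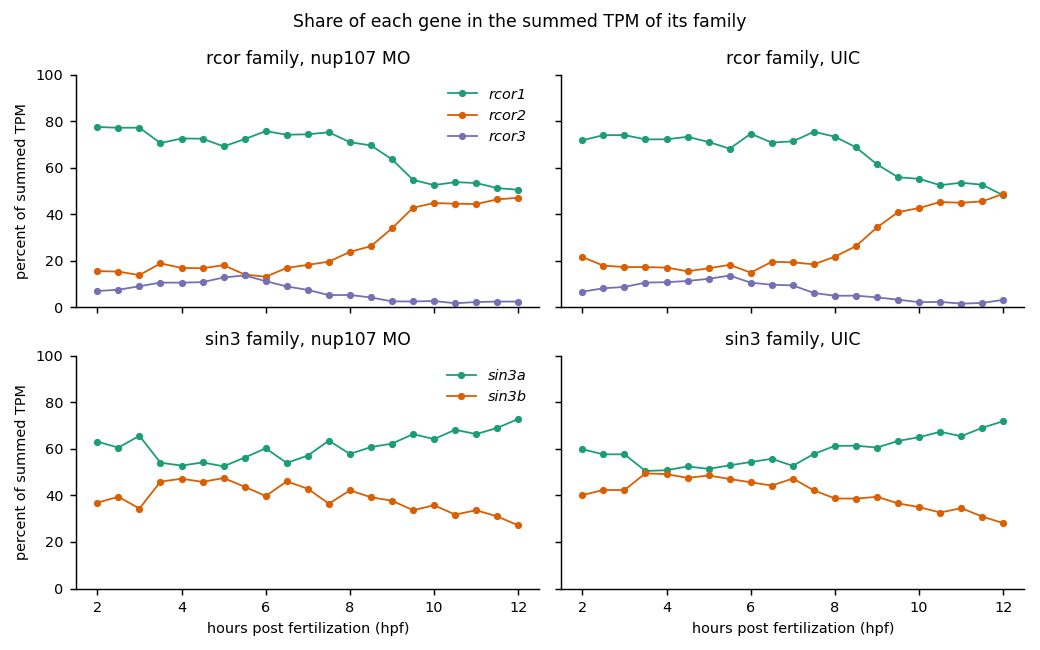
Percent of the summed TPM of a family (y axis, 0 to 100) held by each *rcor* gene (top) and *sin3* gene (bottom) against hpf (x axis), in *nup107* MO (left) and UIC (right) libraries. The *rcor1* and *rcor2* lines approach each other after 8 hpf in both conditions, and *sin3a* gains on *sin3b*.

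*sin3a*, the gene for a SIN3 scaffold, was the corepressor with the largest difference, and the tests disagreed on it. Its lowest, median and highest values were 48.2, 79.6 and 163 TPM in *nup107* MO embryos and 47.1, 74.8 and 138 TPM in UIC embryos. *nup107* MO libraries were higher at 15 of 21 time points, and the ranges overlapped in each window. The mean log2 difference was 0.15 ± 0.04 (SE, adjusted p = 0.0210, limma, 95% interval from 0.06 to 0.23), a fold of 1.11, and 0.15 without the 9 hpf pair (adjusted p = 0.0279). Its LR was -7.62, so the GP test made no call, and limma made none without the pairing block (adjusted p = 1) or in any single window. The largest ratio, 1.39, was at 7.5 hpf, with 111 TPM in *nup107* MO and 80.0 TPM in UIC. The smallest, 0.834, was in the next libraries at 8 hpf, with 79.6 TPM in *nup107* MO and 95.4 TPM in UIC.

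*sin3a* expression had a sharp step between 3 and 3.5 hpf, to 87.2 TPM after 163 TPM in *nup107* MO and to 75.04 TPM after 121 TPM in UIC. It then held until about 8 hpf and was at 60.6 ± 11.4 TPM in *nup107* MO and 56.1 ± 9.09 TPM in UIC at 9 to 12 hpf. It stayed under 50% of its early level from 11 hpf in *nup107* MO and from 11.5 hpf in UIC, later than *rcor1*, *rcor3* and *sin3b*. *ap3d1* (r = 0.976) and *pdpr* (r = 0.973) were most like it, and neither was called.

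*sin3b*, the other SIN3 scaffold gene, followed the same course in both conditions. Its lowest, median and highest values were 18.5, 63.9 and 92.3 TPM in *nup107* MO embryos and 19.1, 61.6 and 92.5 TPM in UIC embryos. The ratio of *nup107* MO to UIC was within 1.2-fold at 20 of 21 time points. The LR was -15.2 and the mean log2 difference 0.03 ± 0.02 (SE, adjusted p = 0.531, limma, 95% interval from -0.02 to 0.08). From 9.5 hpf on it stayed under 50% of its early level in both conditions, and *eps15* and *pan2* (both r = 0.994) were most like it. Early, *sin3a* held 57.6 ± 5.42% of the summed TPM of the SIN3 genes in *nup107* MO libraries and 54.3 ± 3.91% in UIC libraries. Late, it held 67.0 ± 3.44% in *nup107* MO libraries and 66.1 ± 3.73% in UIC libraries.

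In these libraries the average difference between the conditions was larger for *rest* than for each corepressor. At each time point the log2 difference of the corepressor was subtracted from that of *rest*, and the 21 values were tested with a two-sided exact sign-flip permutation test. The mean was 0.72 ± 0.54 against *rcor1* (SD, 21 time points, *rest* larger at 19 of 21, exact p = 2.1e-05). It was 0.79 ± 0.54 against *rcor2* (20 of 21, exact p = 6.68e-06) and 0.80 ± 0.56 against *rcor3* (19 of 21, exact p = 5.72e-06). Against *sin3a* it was 0.59 ± 0.56 (17 of 21, exact p = 0.000199), and against *sin3b* 0.71 ± 0.54 (19 of 21, exact p = 2.1e-05). Leaving out any 1 time point kept the mean between 0.54 and 0.85 in the 5 comparisons. The choice of *rest* from these libraries and the dependence between time points bear on all 5 p-values. That choice favoured a larger difference for *rest* in advance. All 5 tests use the same 21 differences of *rest*, so they are not independent results.

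The order of levels among the 6 genes also differed early. At 2 to 5 hpf the lowest *rest* library of *nup107* MO embryos, at 59.3 TPM, was above their highest *rcor2* library, at 45.3 TPM. In UIC embryos *rest* (25.7 to 60.5 TPM) and *rcor2* (33.3 to 69.3 TPM) overlapped. *rcor1* had the highest mean of the 6 genes in both conditions in this window, and its lowest library was at 143 TPM in *nup107* MO and 141 TPM in UIC. At 9 to 12 hpf *sin3a* had the highest mean and *rcor3* the lowest in both conditions. *rcor2* and *sin3b* did not separate there, at means of 31.7 and 30.5 TPM in *nup107* MO and of 31.1 and 29.6 TPM in UIC.

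Further genes of the CoREST-LSD1-HDAC complex and its partners were examined through a list of genes known in mammals. The 13 tested genes whose symbol stood for exactly 1 gene of the table are counted. The GP test called 2 increased and 0 decreased, and limma called 2 higher and 0 lower over the course, against the backgrounds of 5.22% and 10.3% given above. At an unadjusted p under 0.05 limma had 5 higher and 0 lower, against 17.8% and 10.5% of all tested genes. The median log2 difference of the list was 0.04, and that of all tested genes 0.01. *hmg20b*, the HMG-box subunit of the complex, had a lowest, median and highest value of 35.5, 57.5 and 108 TPM in *nup107* MO embryos and of 13.95, 43.1 and 71.4 TPM in UIC embryos. It exceeded UIC at 20 of 21 time points in *nup107* MO (LR 8.33, mean log2 difference 0.53 ± 0.09 SE, adjusted p = 0.000371, limma), and its difference was 0.48 without the 9 hpf pair. *kdm1a*, the LSD1 demethylase, had 49.2, 59.2 and 76.1 TPM in *nup107* MO and 39.9, 52.3 and 112 TPM in UIC. It was called by the GP test alone (LR 2.03, mean log2 difference 0.14 ± 0.05 SE, adjusted p = 0.0631, limma, and 0.14 without the 9 hpf pair). With log priors added to the score the call was lost (LR -4.22), and without the 2 hpf pair limma called it (0.18, adjusted p = 0.00312). Like *rcor2*, it was lower in *nup107* MO at 2 hpf, at 73.0 TPM against 112 TPM in UIC. The deacetylase genes *hdac1* and *hdac2* were not called over the course (mean log2 differences of 0.02 and 0.09), but limma called *hdac2* higher at 9 to 12 hpf (0.18, adjusted p = 0.0225). *rreb1*, a zinc finger factor, was called by limma alone (0.42 ± 0.07 SE, adjusted p = 0.000404), and was named after its value was seen. By window, limma called 2 of the 13 higher at 2 to 5 hpf, *hmg20b* (0.56, adjusted p = 0.040) and *rreb1* (0.60, adjusted p = 0.0061). Of all tested genes 6.3% were higher there, and 5.3% at 9 to 12 hpf, where *hdac2* was the 1 called.

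Of 25 tested genes listed for the SIN3-HDAC complex and its partners, the GP test called 2 increased and 0 decreased. There limma called 4 higher and 0 lower, with 5.22% of all tested genes increased by the GP test and 10.3% higher by limma. At an unadjusted p under 0.05 limma had 4 higher and 2 lower, against 17.8% and 10.5% of all tested genes, and the median log2 difference of the list was 0.02. The GP calls were *arid4a* and *arid4b*, paralogous chromatin-binding subunits of the complex. *arid4a* had a lowest, median and highest value of 29.4, 63.0 and 117 TPM in *nup107* MO embryos and of 12.0, 51.2 and 109 TPM in UIC embryos. It exceeded UIC at 19 of 21 time points in *nup107* MO (LR 7.84, mean log2 difference 0.45 ± 0.09 SE, adjusted p = 0.000963, limma). *arid4b* had 0.92, 17.8 and 75.2 TPM in *nup107* MO and 1.02, 19.5 and 72.5 TPM in UIC, and exceeded UIC at 16 of 21 time points in *nup107* MO (LR 7.54, 0.65 ± 0.14 SE, adjusted p = 0.00285, limma). The study picked *arid4b* from these libraries, as it did *rest*. Without the 9 hpf pair the differences were 0.39 for *arid4a* and 0.59 for *arid4b*. The 2 further limma calls, named after their values were seen, were *kdm5b*, a histone demethylase (0.16 ± 0.04 SE, adjusted p = 0.00976), and *ogt*, an O-GlcNAc transferase (0.13 ± 0.04 SE, adjusted p = 0.0232). The remaining genes of the list, among them *sap18*, *sap30* and *rbbp4*, were not called over the course. By window, limma called 2 of the 25 higher at 2 to 5 hpf, *suds3* (0.16, adjusted p = 0.0132) and *kdm5b* (0.23, adjusted p = 0.0469). Of all tested genes 6.3% were higher there. At 9 to 12 hpf it called *ing2*, a PHD finger subunit, lower (-0.18, adjusted p = 0.0226), with 4.66% of all tested genes lower there.

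*hmg20b*, *arid4a* and *arid4b* resembled *rest* at some time points and not at others. Between 2 and 5 hpf *hmg20b* went from 36.2 to 71.4 TPM in UIC embryos, while *rest* went from 60.5 to 34.8 TPM. In *nup107* MO embryos *hmg20b* went from 54.1 to 93.6 TPM, and *rest* from 59.9 to 59.3 TPM. In *nup107* MO embryos *arid4b* held 62.8 and 57.1 TPM at 6 and 6.5 hpf and 17.8 TPM at 7 hpf, when *rest* held 65.9, 65.3 and 36.0 TPM. At 7 hpf the log2 difference was -0.06 for *rest*, -0.11 for *hmg20b*, 0.08 for *arid4a* and -0.47 for *arid4b*. At 9 hpf it was between 1.68 and 1.82 for all 4, the largest of the course for each. The same time point held the highest difference of 388 of the 784 genes called increased, so it is not particular to these 4. Their UIC values at 9 hpf were 10.0 TPM for *rest*, 13.95 TPM for *hmg20b*, 12.0 TPM for *arid4a* and 1.62 TPM for *arid4b*, set against 34.4, 48.4, 41.2 and 8.26 TPM in *nup107* MO.

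**Figure D4:**
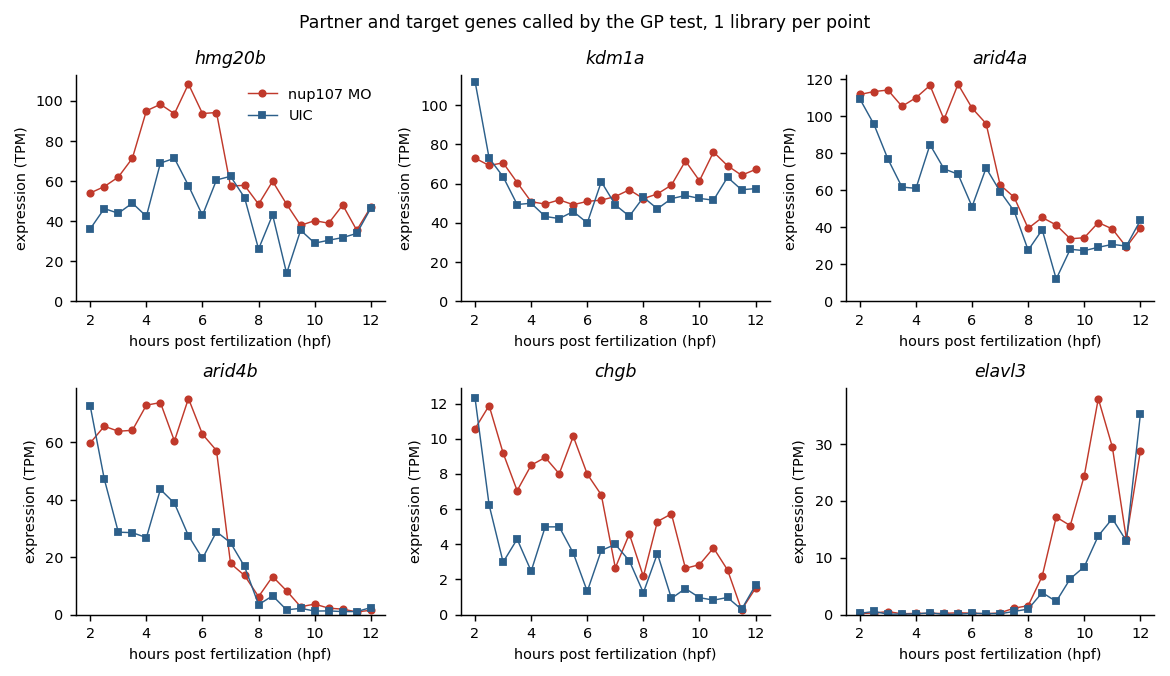
Expression in TPM (y axis, from 0) against hpf (x axis) of the 6 partner and target genes called by the GP test, in *nup107* MO (red circles) and UIC (blue squares) embryos, 1 library per point. *hmg20b*, *arid4a* and *arid4b* are higher in *nup107* MO from 2.5 to 6.5 hpf and at 9 hpf, and *elavl3* between 8.5 and 11 hpf. At 2 hpf *arid4b* is lower in *nup107* MO.

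Genes for other REST cofactors and for the turnover of REST protein formed a list of 23 tested genes. It was drawn up by symbol from general knowledge of mammals, and the link of each gene to REST was not checked. The GP test called 0 of them, and limma called 5 higher and 1 lower, with a median log2 difference of 0.04, beside 10.3% of all tested genes higher and 4.8% lower. At an unadjusted p under 0.05 limma had 7 higher and 2 lower, against 17.8% and 10.5% of all tested genes. The limma calls, named after their values were seen, were small. *btrc*, an F-box protein that directs REST to degradation in human cells, differed by 0.07 ± 0.02 (SE, adjusted p = 0.0273), and *usp7*, a deubiquitinase, by 0.09 ± 0.03 (adjusted p = 0.0449). *cdyl* and *ezh2*, which act on or bind modified chromatin, differed by 0.14 and 0.08. *ctdsp2*, a phosphatase, was the 1 called lower, by -0.08 ± 0.03 (SE, adjusted p = 0.0313, limma). By window, limma called *ezh2* higher at 2 to 5 hpf (0.11, adjusted p = 0.0469) and *usp15* higher at 9 to 12 hpf (0.18, adjusted p = 0.0461). Of all tested genes 6.3% and 5.3% were higher in these windows. *usp15* was named after its value was seen.

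A list of neuronal genes known in mammals as targets of REST was also drawn up from general knowledge, and these links were not checked. Of its 39 genes found in the table, 13 (33.3%) passed the filter on low expression, against 43.9% of all genes in the table. The filter passes genes that are expressed in either condition. The GP test called 2 of the 13 increased and 0 decreased, and limma called 2 higher and 1 lower, beside 5.22% of all tested genes increased by the GP test and 10.3% higher and 4.8% lower by limma. At an unadjusted p under 0.05 limma had 4 higher and 2 lower (17.8% and 10.5% of all tested genes), and the median log2 difference of the 13 was 0.05. Both GP calls, *chgb* and *elavl3*, were lost when log priors were added to the score (LR -0.23 and -0.22). *chgb*, the secretory granule protein chromogranin B, had a lowest, median and highest value of 0.27, 5.73 and 11.9 TPM in *nup107* MO embryos and of 0.29, 2.98 and 12.3 TPM in UIC embryos. It exceeded UIC at 17 of 21 time points in *nup107* MO (LR 6.07, mean log2 difference 0.75 ± 0.13 SE, adjusted p = 0.000523, limma, and 0.70 without the 9 hpf pair) and declined over the course in both conditions. *elavl3*, a neuronal RNA-binding protein, was under 1 TPM in all libraries up to 7 hpf. At 9, 9.5, 10, 10.5 and 11 hpf it reached 17.2, 15.7, 24.4, 38.0 and 29.5 TPM in *nup107* MO, against 2.30, 6.30, 8.41, 13.9 and 16.9 TPM in UIC. At 12 hpf it was at 28.8 TPM in *nup107* MO and 35.2 TPM in UIC. Its log2 difference was 1.00 at 9 to 12 hpf (adjusted p = 0.00363, limma) and 0.45 ± 0.14 over the course (SE, adjusted p = 0.0316), a call that was lost without the pair of 9.5, 10 or 10.5 hpf. Without the 9 hpf pair, the time of its largest difference, it was 0.35 (adjusted p = 0.0352). *tubb3*, the neuronal tubulin, was the 1 called lower by limma (-0.18 ± 0.06 SE, adjusted p = 0.0274) and was named after its value was seen. At 9 to 12 hpf limma called 3 of the 13 higher, with 5.3% of all tested genes higher there. These were *elavl3*, *chgb* (0.78, adjusted p = 0.0440) and *calb1* (0.25, adjusted p = 0.0437), the last named after its value was seen.

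**Figure D5:**
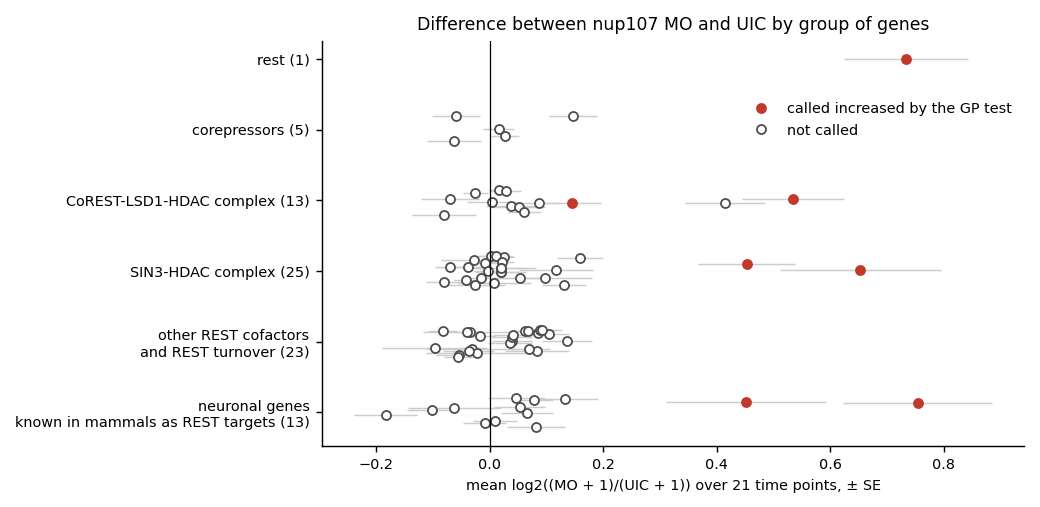
Mean log2((MO + 1)/(UIC + 1)) over 21 time points (x axis, bars are SE) for *rest*, the 5 corepressors and the 4 lists of partner and target genes (y axis, number tested in brackets); filled points were called increased by the GP test. *rest* lies at 0.73, the corepressors between -0.06 and 0.15, and 6 of the 74 listed genes are called.

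Markers of cell types and of the oocyte were read beside these results. Of 5 epidermal, 6 neural, 3 mesodermal and 5 endodermal markers the GP test called 0, and limma called 0 over the whole course. At an unadjusted p under 0.05 limma had 4 higher and 1 lower of these 19 (17.8% and 10.5% of all tested genes). Of the 4, 3 were among the 5 epidermal markers. All 5 epidermal markers were higher on average (median log2 difference 0.09), as were 8298 of the 15011 tested genes. At 9 to 12 hpf limma called 1 of them, *grhl1*, higher (adjusted p = 0.0461), with 5.3% of all tested genes higher there. The summed level of the markers at 9 to 12 hpf overlapped between the conditions. It was 1169 to 3066 TPM in *nup107* MO and 1066 to 2907 TPM in UIC for epidermis. For the neural list it was 556 to 625 TPM in *nup107* MO and 552 to 619 TPM in UIC. *neurog3* was at 0 in all 7 UIC libraries of 2 to 5 hpf, and no other marker was at 0 throughout a window. Of 7 maternal oocyte transcripts, the GP test called 1 decreased (*zar1l*, LR 2.05) and 0 increased, and limma called 4 lower (*zar1l*, *gdf1*, *btg4* and *mos*) and 0 higher, beside 4.8% of all tested genes lower. Their summed level at 2 to 5 hpf was 3581 to 4418 TPM in *nup107* MO and 3811 to 4810 TPM in UIC. *zar1*, *vegt* and *velo1* were not called (mean log2 differences of -0.04, 0.01 and 0.006). At 9 to 12 hpf the median summed level was 572 TPM in *nup107* MO and 541 TPM in UIC. With ERCC scaling the share of all tested genes called lower was 0.346%. The part of cell composition in the difference of *rest* was not tested.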

How the data were processed

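PolyA+ RNA was sequenced from *nup107* MO and UIC embryos at 21 time points, in 42 of the 84 samples. The other 42, labelled ribozero, were not analysed here: their table is identical to that of the polyA+ samples. The labels gave each sample's condition and time.

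The deposited values are TPM per gene, which the authors made with STAR and RSEM on the Xt9.1 genome joined to 92 ERCC spike-in sequences, and the spike-ins are part of the total. Nothing in the sources used here says that the dinucleotide correction of the study's methods is in these values. TPM keep no read counts, so the precision that depth gives is unknown.

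For the GP test, each value was taken as the square root of 1 + 1000x, where x is the TPM over the maximum of the gene. A Matern 5/2 kernel was used, with normal priors on log amplitude, length scale and noise (means 3, 2 and 0, SDs 2, 4 and 4), a process mean of 0 and 51 length scales with 3 starts each. Taking the second number of each prior as an SD, and the mean of 0, were choices not given in the methods. limma was fitted to log2(TPM + 1), which understates changes at low expression, with time point as a block, because injected embryos and their sibling controls were sampled together. The exact sign-flip test used all sign combinations. Intervals are 95% from the SE. Both scripts were run on simulated data. The simulated noise was independent between genes and time points, so shared library shifts and dependence over time were not covered. Repeated libraries do not exist, so p-values measure the spread between time points.

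The 6 genes and the lists were chosen with earlier results of these data known. All 4 lists came from general knowledge of mammals, and the place of each gene in them was not checked. Named genes are the 6 members, the list members called by the GP test, and the genes most correlated with each member (5 for *rest* and 2 for each other), of which 1 is not reported here. Of 104 list symbols 100 stood for exactly 1 gene of the table, and 74 of these were tested. The other symbols, *ctbp2*, *sinhcaf*, *fbxw11* and *gad1*, did not, and are left out of the list counts. A *ctbp2* gene was fitted by the GP test and not called (LR -13.7). The symbols came from the table itself, where 7405 genes have none. Alternatives covered the filter, the pseudocount, scaling, priors, centring, the LR threshold, the block and each time point left out. Software: limma 3.58.1 under R 4.3.3, and Python 3.11.15 (numba 0.67.0, scipy 1.17.1, numpy 2.4.6, matplotlib 3.10.9, pandas 2.3.3).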

Additional observations from a re-analysis of the deposited data

Results flagged for a closer look

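The limma test of late minus early, with adjustment over all tested genes, was read for the 6 genes, the 74 tested list genes and *nup107*. For 3 of them the difference between *nup107* MO and UIC was not the same at 9 to 12 hpf as at 2 to 5 hpf. Of all tested genes 3.09% were called for this contrast in either direction, so the calls of *suds3* and *smarce1* are not read as a result about the lists. For *nup107*, the targeted gene, late minus early was 1.198 ± 0.13 (SE, adjusted p = 0.000174, limma), with log2 differences of 1.22 late and 0.02 early. For *suds3*, a SIN3 complex subunit, it was -0.2731 ± 0.05 (adjusted p = 0.00731, limma), with -0.11 late and 0.16 early. For *smarce1*, a chromatin remodelling subunit in the list of other cofactors, it was 0.2233 ± 0.05 (adjusted p = 0.0287, limma), with 0.10 late and -0.13 early. Of the 6 genes *rest*, *rcor1*, *rcor2*, *rcor3*, *sin3a* and *sin3b*, 0 were called for this contrast.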

How the results depend on the processing

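Of 192 fits of the 6 genes under other settings, not counting those that left out a time point, 177 kept direction and call, and the call of *rest* by the GP test was kept in all of those run. Without the pairing block, *rest* (log2 difference 0.73, adjusted p = 0.204) and *sin3a* (0.15, adjusted p = 1) lost their limma calls. The time points paired the libraries by design. *sin3a* was called by limma (0.15) and not by the GP test. *rcor2* became called with median-ratio scaling (LR 0.42) and with the mean of each gene subtracted (LR 2.20). Without the filter on low values the late difference of *rest* lost its call (adjusted p = 0.0656).

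Several uncalled differences near 0 changed sign. With median-ratio scaling these were *rcor1* over the course (-0.0050), early (-0.016) and late minus early (0.019), *rcor3* early (-0.040), *sin3b* early (-0.048) and the direction of *sin3b* in the GP test (LR -14.4). With ERCC scaling they were *rcor1* in the middle window (0.054), *rcor2* over the course (0.0053) and the direction of *rcor3* in the GP test (LR -14.5).

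Leaving out each time point in turn kept the LR of *rest* between 9.65 and 13.3 and its log2 difference over the course between 0.69 and 0.78, with the call kept in all 21 fits of each. Its difference ranged from 0.73 to 0.96 early, from 0.59 to 0.87 in the middle window, where it was called without the 9 hpf pair, and from 0.47 to 0.80 late. For *rcor1* the range was -0.037 to 0.035 in the middle window, -0.016 to 0.052 late and -0.050 to 0.018 for late minus early. For *rcor2* it was -0.14 to 0.0033 early. For *rcor3* it was -0.011 to 0.031 early, -0.14 to 0.016 late and -0.15 to 0.0079 for late minus early. For *sin3b* it was -0.027 to 0.025 early, -0.0012 to 0.063 late and -0.0038 to 0.072 for late minus early.

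The GP test called 5.22% of tested genes increased and 2% decreased, 784 and 300 genes (72.3% of called genes increased). The shares increased and decreased were 3.07% and 0.746% at an LR over 3, 1.99% and 0.373% with log priors added, 10.4% and 6.84% with means subtracted, and 10.3% and 4.8% with limma in its place. ERCC scaling gave 5.14% and 0.793%, 771 and 119 genes (86.6% increased), and median-ratio scaling 5% and 3.01%, 751 and 452 genes (62.4% increased).

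The share of genes called by limma depended on the scaling and the block. Over 2 to 12 hpf it was 10.3% higher and 4.8% lower (1541 and 720 genes, 68.2% of called genes higher), 18.1% and 0.346% with ERCC scaling (2716 and 52, 98.1%), and 0.326% and 0.02% without the pairing block (49 and 3, 94.2%). With median-ratio scaling 1187 and 1051 genes were called (53%). At 2 to 5 hpf 6.3% of genes were higher and 0.746% lower. There, 2.38% were higher with median-ratio scaling, and the lower shares were 1.27% with a pseudocount of 5, 0.0933% with ERCC scaling and 1.79% with median-ratio scaling. At 5.5 to 8.5 hpf 0.167% were higher and 0.14% lower. The higher share was 0.0999% with a pseudocount of 0.1 and 0.54% with 5, and the lower share 0.446% with a pseudocount of 5, 0.04% with ERCC scaling and 0.0866% with median-ratio scaling. At 9 to 12 hpf the lower share of 4.66% became 0.553% with ERCC scaling. For late minus early, 1.01% were higher and 2.09% lower, 0.167% and 0.0999% with ERCC scaling, and 1.01% lower with median-ratio scaling. Leaving out each time point gave 2.5% to 8.27% higher and 0.213% to 0.926% lower at 2 to 5 hpf, 0.0666% to 1.89% higher and 0.0666% to 0.62% lower at 5.5 to 8.5 hpf, 2.73% to 5.87% higher at 9 to 12 hpf, and 0.533% to 1.51% higher and 0.973% to 2.75% lower for late minus early.

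Of 66 fits of *hmg20b*, *kdm1a*, *arid4a*, *arid4b*, *chgb* and *elavl3* under other settings, not counting those that left out a time point, 54 kept direction and call, and 0 of the other 12 changed direction.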
